A study of Mus musculus with 10 samples.

Results

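The Rhox genes are a family of homeobox genes clustered on the mouse X chromosome, and 3 of them, Rhox5, Rhox6 and Rhox10, stood in the deposited RNA sequencing tables of mouse embryonic stem cells (ESCs) with mutations in Mbd3. They were taken by their symbol, as every gene whose name starts with Rhox, and they are 3 of 8694 distinct genes listed over the 4 tables. The tables list genes that the authors called as differing from wild type (WT), so the choice of these genes rests on the differences from WT themselves, and those differences are given as a description. The authors' adjusted p-values of the Rhox genes are the values that chose them and are no further evidence. RefSeq annotates 33 protein-coding Rhox genes in GRCm38.p6, and those without a row in any table are not analysed here.

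Mbd3 is a subunit of the NuRD complex, which remodels nucleosomes and removes acetyl groups from histones, and it is made in isoforms that the labels name a, b and c. All cells are of the E14 ESC line, grown on gelatin without feeder cells named in the labels, and the mutants were made with CRISPR/Cas9. The groups are Mbd3ab KO (Mbd3ab -/-, mutation in exon 2), Mbd3c KO (Mbd3c -/-, mutation in intron 2), Mbd3abc KO (Mbd3abc -/-, mutation in exon 5), Mbd3cΔN-ab KO (Mbd3cdeltaN; ab-/-, mutation in exon 2) and WT, each with 2 libraries of total RNA depleted of ribosomal RNA. The labels call the 2 libraries of a group biological replicates, and each mutant column carries a line name of its own, without a statement that these are separate clones, so a p-value measures the spread between these libraries.

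Rhox proteins are transcription factors with a PRD-class homeodomain, made mainly in the testis, ovary, placenta and germ cells. Rhox5, also known as Pem, is made in Sertoli cells, where it serves germ cell survival, and is also transcribed in ESCs and in extraembryonic tissue. Rhox6 and its close relative Rhox9 were first described in placenta and germ cells, and Rhox10 is known from spermatogonia. The cluster is a well-known target of repression by DNA methylation, histone H3 lysine 9 methylation and linker histone H1.

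Mbd3 itself, the targeted gene, was lower in all 3 mutants whose tables list it, counted over the whole gene. It had 506 and 638 normalized reads in Mbd3ab KO, against 1523 and 1468 in WT, 108 and 158 in Mbd3abc KO, against 1775 and 1689 in WT, and 300 and 292 in Mbd3cΔN-ab KO, against 1685 and 1614 in WT. These are falls of 2.61-fold, 13-fold and 5.57-fold in that order. Mbd3 is not listed for Mbd3c KO, and a small mutation need not change the RNA level of a gene. Relative to the first WT library, depth was 1.593 in the second and 0.94 to 1.378 in the Mbd3abc KO and Mbd3cΔN-ab KO libraries, and total reads per library are unknown.

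In the annotation that the files carry (mm10), all 3 genes lie on the plus strand of the X chromosome. Rhox5 spans chrX:37754608-37808878 with an exonic length of 793 bases, Rhox6 spans chrX:37827055-37829857 with 859 bases, and Rhox10 spans chrX:38066475-38071688 with 755 bases. The homeobox of these genes is split between exons, and its short exon of 46 bases shows how far the members differ and which of them has a near copy. It is printed here in the direction of transcription from GRCm38 with GENCODE M21, and capitals mark the bases that differ from Rhox6, position by position.
Rhox6, chrX:37828415-37828460, plus strand: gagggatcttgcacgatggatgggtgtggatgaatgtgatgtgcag
Rhox9, chrX:37900280-37900325, minus strand: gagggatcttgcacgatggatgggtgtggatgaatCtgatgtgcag
Rhox5, chrX:37806074-37806119, plus strand: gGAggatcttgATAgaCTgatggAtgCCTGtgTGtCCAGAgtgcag
Rhox10, chrX:38069399-38069444, plus strand: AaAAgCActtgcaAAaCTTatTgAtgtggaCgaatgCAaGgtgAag
Rhox9 differed from Rhox6 at 1 of the 46 bases (97.8% identity), Rhox10 at 17 (63%) and Rhox5 at 19 (58.7%). Over whole GENCODE transcripts, 159 of the 961 windows of 50 bases in Rhox6 (16.5%) also occur in a transcript of another gene, Rhox9. None of the 584 windows of Rhox5 and none of the 714 windows of Rhox10 do. The GENCODE transcripts of Rhox5 and Rhox6 have 633 and 1010 bases, against 793 and 859 counted. Part of the counted Rhox5 transcript was thus not checked. Reads of Rhox6 from the shared windows could have been placed on Rhox9 or the reverse, and Rhox9 has no row in any table, so Rhox6 values are uncertain to that extent.

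The start of Rhox5 in the files lies 50.2 kb upstream of its start in GENCODE M21 (37804842), and Rhox5 is known to be transcribed from a proximal and a distal promoter. The 250 bases before the start used by the files are shown for Rhox5, which was lower in 3 mutants, and for Rhox10, which was higher in 1. Both come from RefSeq with GRCm38.p6, and RefSeq gave no entry for Rhox6 here. Capitals mark matches, on either strand, to CCAAT, the CCAAT box, and to CCGGAA, a core of ETS factor sites.
Rhox5, chrX:37754358-37754607, plus strand: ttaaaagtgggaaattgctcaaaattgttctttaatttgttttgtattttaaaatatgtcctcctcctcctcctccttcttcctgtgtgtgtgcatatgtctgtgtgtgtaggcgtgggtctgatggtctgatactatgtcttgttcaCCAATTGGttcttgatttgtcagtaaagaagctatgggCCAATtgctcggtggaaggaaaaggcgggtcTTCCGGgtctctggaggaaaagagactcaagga
Rhox10, chrX:38066225-38066474, plus strand: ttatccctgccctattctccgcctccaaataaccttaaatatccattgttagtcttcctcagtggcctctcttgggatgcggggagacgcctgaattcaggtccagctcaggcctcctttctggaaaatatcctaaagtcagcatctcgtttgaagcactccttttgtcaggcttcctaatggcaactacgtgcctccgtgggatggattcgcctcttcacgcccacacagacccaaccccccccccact
The Rhox5 window holds CCAAT at positions -102 and -64 on the plus strand and at -99 on the minus strand, the first of which overlaps the minus strand match, and CCGGAA at -33 on the minus strand. Of 32851 RefSeq promoters of this length, 33.8% hold CCAAT and 12% hold CCGGAA. The Rhox10 window holds neither, nor GGGCGG (the GC box, in 32.7% of promoters), TATAAA (the TATA box, in 12.4%) or CACGTG (the E-box, in 6.02%), and of these last motifs the Rhox5 window holds none either. Rhox5 has 4 CG dinucleotides in its window and Rhox10 has 8, against a median of 6 over all promoters; 62.2% of promoters have at least as many as Rhox5 and 43% at least as many as Rhox10. These matches describe the letters only.

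Rhox5 was lower than in WT in each of the 3 tables that list it, and most of all in Mbd3abc KO. Values are normalized reads, that is, reads of the gene divided by a size factor of the library, and they are comparable within a table only, because each table was normalized on its own. In Mbd3ab KO, Rhox5 had 44.9 and 40.6 normalized reads, against 247 and 280 in WT. In Mbd3abc KO it had 15.5 and 4.77, against 288 and 322 in WT, and in Mbd3cΔN-ab KO it had 20.5 and 29.6, against 274 and 308 in WT. Every mutant library was far below both WT libraries of its table, and the spread within a group was small beside the gap. The means were 42.8 ± 3.01 in Mbd3ab KO and 264 ± 23 in WT (SD, n = 2 each), a level in the mutant that was 6.16-fold lower and 16.2% of WT. For Mbd3abc KO the means were 10.1 ± 7.56 in the mutant and 305 ± 23.9 in WT (SD, n = 2 each), 30.2-fold lower and 3.31% of WT. For Mbd3cΔN-ab KO they were 25 ± 6.5 in the mutant and 291 ± 24.2 in WT (SD, n = 2 each), 11.6-fold lower and 8.61% of WT. In RNA from whole cultures, fewer cells that transcribe a gene and less RNA per cell cannot be told apart.

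The Mbd3abc KO level of Rhox5 rests on few reads. Whole reads could be recovered from the Mbd3abc KO and Mbd3cΔN-ab KO tables, and Rhox5 had 16 and 5 reads in the Mbd3abc KO libraries (95% Poisson intervals 9.15 to 26 and 1.62 to 11.7), against 224 and 395 in WT. The Mbd3cΔN-ab KO libraries had 17 and 35 reads of Rhox5 (9.9 to 27.2 and 24.4 to 48.7). These intervals cover counting error only and are not adjusted for depth. They overlap within each mutant, which does not test whether its 2 libraries agree. Left with the second Mbd3abc KO library alone, the log2 ratio of Rhox5 to WT was -6.00, and with the first alone it was -4.30, around -4.92 with both.

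Rhox6, which lies downstream of Rhox5 in the cluster, was lower than in WT in the same 3 tables, by less, and in a different order of mutants. That order rests on the means alone, since Rhox6 did not pass the threshold between any pair of mutants. Rhox6 had 18 and 21.1 normalized reads in Mbd3ab KO, against 51.9 and 68.7 in WT. In Mbd3abc KO it had 40.6 and 31.5, against 60.5 and 79.1 in WT, and in Mbd3cΔN-ab KO it had 19.3 and 17.8, against 57.4 and 75.6 in WT. No mutant library reached the lower WT library, but in Mbd3abc KO the groups came much closer to each other than in the other tables. The mean of Rhox6 was 19.5 ± 2.2 in Mbd3ab KO and 60.3 ± 11.9 in WT, 3.09-fold lower and 32.4% of WT. It was 36 ± 6.45 in Mbd3abc KO and 69.8 ± 13.2 in WT, 1.94-fold lower and 51.6% of WT. It was 18.5 ± 1.03 in Mbd3cΔN-ab KO and 66.5 ± 12.9 in WT, 3.59-fold lower and 27.8% of WT (SD, n = 2 each throughout). In reads, Rhox6 had 42 and 33 in Mbd3abc KO and 16 and 21 in Mbd3cΔN-ab KO, against 47 and 97 in WT.

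Rhox10 showed the opposite direction and was listed in the Mbd3abc KO table alone. It had 22.2 and 13.4 normalized reads in Mbd3abc KO, from 23 and 14 reads (95% Poisson intervals 14.6 to 34.5 and 7.65 to 23.5), against 0 reads in both WT libraries. A count of 0 allows up to 3 reads per library, as a one-sided 95% limit for counting error. This floor averaged 3.15 normalized reads over the WT libraries. Against it, the mean of Rhox10 in Mbd3abc KO was at least 5.64-fold higher, with no allowance for counting error in the mutant reads. The mutant level itself, 17.8 ± 6.28 normalized reads (SD, n = 2), stayed low. In the other 3 tables Rhox10 is not listed, which says only that it was not called there.

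**Figure D1:**
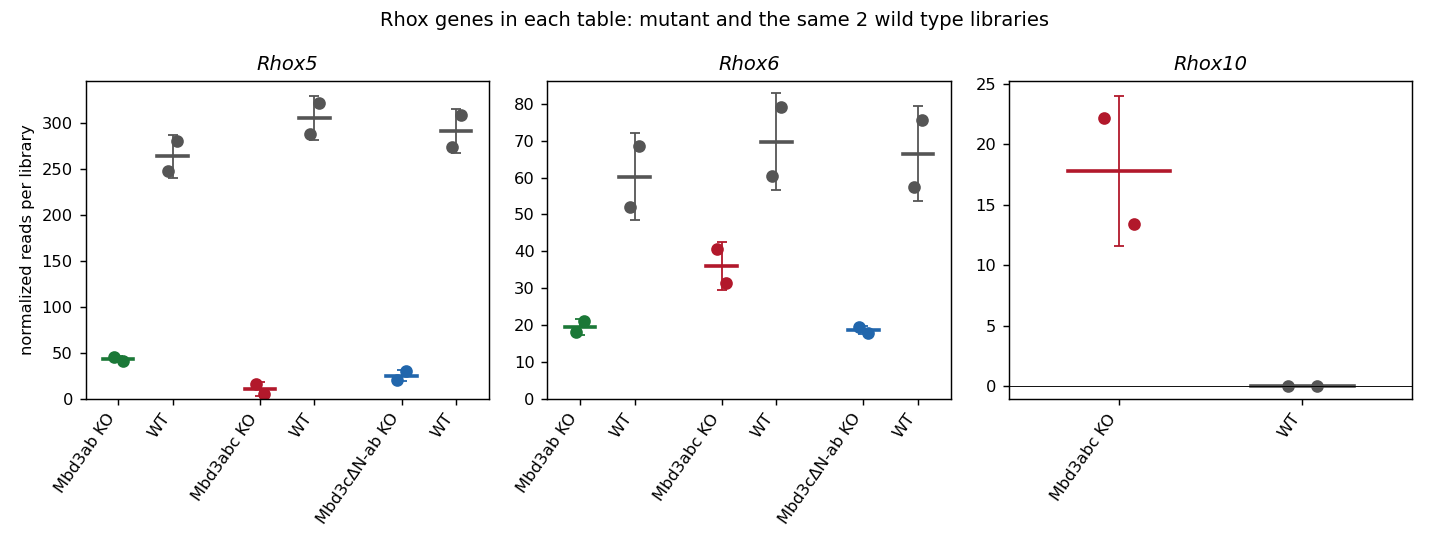
Normalized reads (vertical axes, linear, a scale for each gene) of Rhox5, Rhox6 and Rhox10 in each library, with each mutant left of the WT libraries of its own table; bars are group means and whiskers are 1 SD of 2 libraries. Mutant points of Rhox5 lie between 4.77 and 44.9 and WT points between 247 and 322, whereas for Rhox6 the Mbd3abc KO points, 31.5 and 40.6, lie nearer to WT than those of the other mutants.

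In the authors' deposited table of Mbd3ab KO, where 3.35% of the genes tested were called and 1.3% were called lower at an adjusted p under 0.05 by DESeq2, Rhox5 had a log2 fold change of -2.30 ± 0.27 (SE) and an adjusted p of 8.93e-14. In the authors' deposited table of Mbd3abc KO, where 52.1% of the genes tested were called and 24.9% were called lower, it had -4.44 ± 0.40 and 7.57e-27 by DESeq2. In the authors' deposited table of Mbd3cΔN-ab KO, with 41.5% called and 20.4% called lower, it had -3.25 ± 0.28 and 6.42e-29 by DESeq2. Ordered by these fold changes, which for Rhox5 and Rhox6 are smaller in size than the log2 ratios of means, Rhox5 was number 4 of 171 lower genes in the authors' deposited table of Mbd3ab KO, number 7 of 3892 in that of Mbd3abc KO and number 4 of 2938 in that of Mbd3cΔN-ab KO. Rhox5 thus stood near the extreme of each table, where the median lower gene had a log2 fold change of -0.93, -1.02 and -0.79 in that order of the authors' deposited tables.

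Rhox6 sat further inside the same lists. The authors' deposited table of Mbd3ab KO gives it a log2 fold change of -1.21 ± 0.37 with an adjusted p of 0.0379 by DESeq2, number 42 of the 171 lower genes. That of Mbd3abc KO, again in the authors' deposited table, is -0.90 ± 0.35 with an adjusted p of 0.022 by DESeq2, number 2324 of 3892, a smaller change than that of the median lower gene. The authors' deposited table of Mbd3cΔN-ab KO gives -1.61 ± 0.37 with an adjusted p of 6.94e-05 by DESeq2, number 132 of 2938. For Rhox10 the authors' deposited table of Mbd3abc KO, in which 27.1% of the genes tested were called higher, has a log2 fold change of 3.01 ± 0.69 and an adjusted p of 4.11e-05 by DESeq2. The Mbd3c KO table, with 0.353% of the genes tested called, lists no Rhox gene, and its levels of Rhox5 and Rhox6 are not analysed here. At the threshold in Mbd3ab KO, the last gene inside was Med1, with an adjusted p of 0.0498 in the authors' deposited table from DESeq2, and the first outside was Plek2, with 0.0502.

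Because the gene length differs little between Rhox5 and Rhox6, their balance within a library can be given per kilobase of transcript, a ratio that no scaling of the library can alter. In WT, Rhox5 was the more abundant gene, with 312 to 406 normalized reads per kb over the tables, against 60.4 to 92.1 for Rhox6. The level of Rhox6 per kb divided by that of Rhox5 per kb was 2.42 and 6.09 in the Mbd3abc KO libraries, 0.869 and 0.554 in the Mbd3cΔN-ab KO libraries and 0.369 and 0.479 in the Mbd3ab KO libraries, against 0.194 and 0.227 in WT. The libraries of each group kept apart from those of the next in this order, and Rhox6 exceeded Rhox5 in both Mbd3abc KO libraries and in no other library. The WT libraries are the same in all tables, so this ratio has a common reference there.

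**Figure D2:**
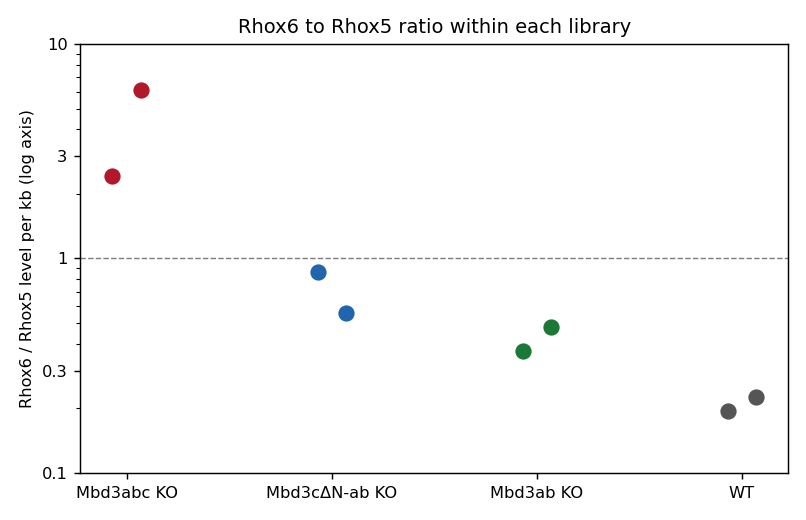
Ratio of the Rhox6 level to the Rhox5 level, both per kb of transcript (vertical axis, log scale), for each library of the 3 mutants and of WT; the dashed line marks equal levels. The Mbd3abc KO points, 2.42 and 6.09, lie above the line and the points of all other groups, from 0.194 to 0.869, below it.

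The mutants differ in which Mbd3 isoforms remain, so the mutants were also compared with each other, a contrast that did not choose the genes. Each test ran over all genes called in both tables of a pair, fitted with the mutant and WT libraries together, and the 2 WT libraries put the tables on 1 scale. On that scale Rhox5 had 15.5 and 4.77 normalized reads in Mbd3abc KO and 52 and 47.1 in Mbd3ab KO. The libraries did not overlap, and Rhox5 was 5.18-fold lower in Mbd3abc KO, a log2 difference of -2.37 ± 0.51 (SE, 95% interval -3.58 to -1.17), with an adjusted p of 0.0162 by limma on log2(level + 1), where 31.8% of the 368 genes tested were called. The adjusted p by limma was 0.0667 without the first Mbd3ab KO library and 0.0784 without the second, so the call needs both, and it ranged from 0.00152 to 0.0784 over all alternatives. The difference itself was between -3.13 and -1.62 when either Mbd3abc KO library was left out.

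The other mutant pairs did not pass the threshold for Rhox5. Between Mbd3abc KO (15.5 and 4.77) and Mbd3cΔN-ab KO (21.5 and 31.1 on the same scale) the log2 difference was -1.42 ± 0.49 (SE, 95% interval -2.56 to -0.28), with an adjusted p of 0.101 by edgeR's quasi-likelihood test on recovered reads, where 6.68% of 5404 genes were called. DESeq2 on the same reads gave -1.44 and an adjusted p of 0.0453, and over all alternatives the adjusted p ran up to 0.3. Without the first Mbd3abc KO library the edgeR difference was -2.51, and without the second it was -0.81. Between Mbd3cΔN-ab KO (20.5 and 29.6) and Mbd3ab KO (49.5 and 44.8 on that scale) it was -0.91 ± 0.36 (SE, 95% interval -1.75 to -0.07), with an adjusted p of 0.265 by limma, where 1.14% of 352 genes were called. Set in order of level, Rhox5 was thus lowest in Mbd3abc KO, then Mbd3cΔN-ab KO, then Mbd3ab KO and then WT, with the neighbouring mutants not separated by their tests and the outer ones separated. By group means, 89 (65.4%) of the 136 genes lower in all 3 tables had the same order of falls as Rhox5. By the same means, 5 (3.68%) had their smallest fall in Mbd3abc KO, as Rhox6 did.

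For Rhox6 no pair of mutants was separated. It had 40.6 and 31.5 normalized reads in Mbd3abc KO and 20.2 and 18.7 in Mbd3cΔN-ab KO on that scale, libraries that did not overlap, with a log2 difference of 0.86 ± 0.37 (SE, 95% interval 0.01 to 1.70) and an adjusted p of 0.151 by edgeR's quasi-likelihood test. Against Mbd3ab KO, at 20.8 and 24.4, the Mbd3abc KO level of Rhox6 differed by 0.64 ± 0.38 (SE, 95% interval -0.24 to 1.53), with an adjusted p of 0.238 by limma. Between Mbd3cΔN-ab KO, at 19.3 and 17.8, and Mbd3ab KO, at 19.8 and 23.2, the difference was -0.20 ± 0.43 (SE, 95% interval -1.19 to 0.79), with an adjusted p of 0.834 by limma. The intervals hold up to a 1.70 log2 higher level in Mbd3abc KO than in Mbd3cΔN-ab KO. The sign of the Rhox6 difference between Mbd3abc KO and either other mutant was opposite to that of Rhox5, and the difference of these differences was not tested.

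The genes whose pattern over the 3 mutants was most like that of Rhox5 were found among the 317 genes called in all 3 tables, as those with the smallest Euclidean distance between log2 ratios of group means. All these ratios share the same WT libraries. Fgf17, a fibroblast growth factor, was closest to Rhox5 (distance 0.54), with log2 ratios of -2.41 in Mbd3ab KO, -3.32 in Mbd3cΔN-ab KO and -4.47 in Mbd3abc KO, beside -2.62, -3.54 and -4.92 for Rhox5. Dll1, a ligand of Notch receptors, came next at 0.81, then Vrtn at 1.17, the G protein subunit Gna14 at 1.45 and the nucleoside transporter Slc28a1 at 1.53. Rhox6, with log2 ratios of -1.63, -1.84 and -0.95 in that order of mutants, was 4.42 away from Rhox5, which made it number 95 by distance. The genes most like Rhox6 were Mycn, a Myc family transcription factor, at 0.60, Fosl2, a subunit of AP-1, at 0.68, the cadherin Celsr2 at 0.81, the Polycomb group gene Scmh1 at 0.82 and the alanine aminotransferase Gpt2 at 0.83. None of these 10 genes lies on the X chromosome. That chromosome held only 15 of the 442 genes called in Mbd3ab KO, so this count does not stand apart.

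**Figure D3:**
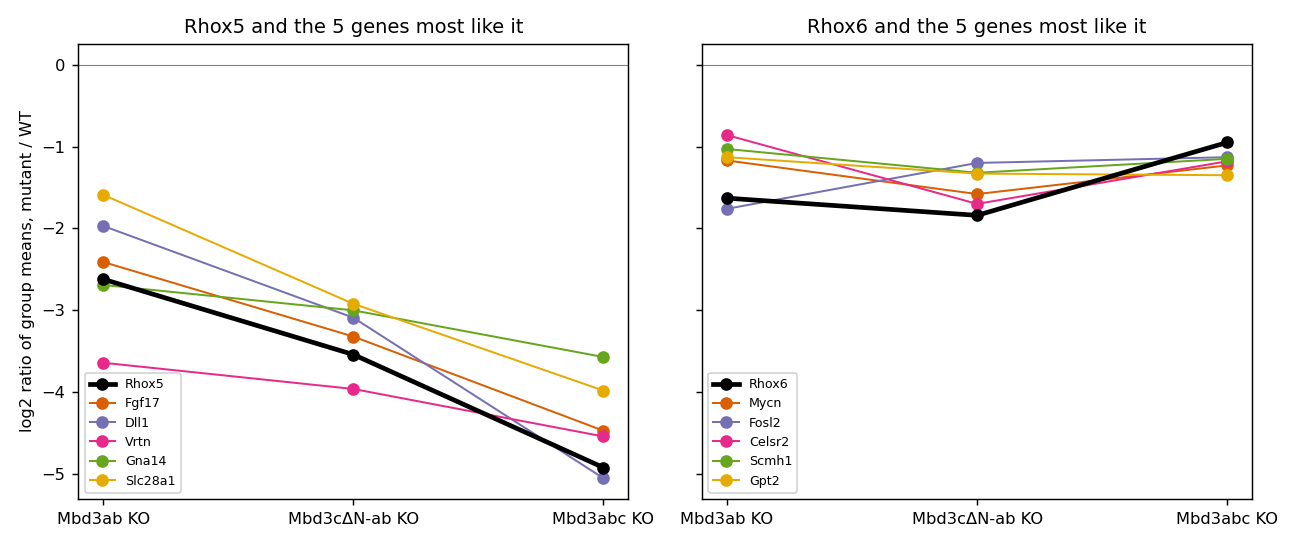
Log2 ratio of group means, mutant over WT (vertical axis), in Mbd3ab KO, Mbd3cΔN-ab KO and Mbd3abc KO for Rhox5 (left, black) and Rhox6 (right, black) with the 5 genes whose ratios lie closest to each. The Rhox5 line runs through -2.62, -3.54 and -4.92, whereas the Rhox6 line runs through -1.63, -1.84 and -0.95.

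In Mbd3abc KO and Mbd3cΔN-ab KO, most of the called neighbours of Rhox5 and Rhox6 on the X chromosome were higher, the opposite of these 2 genes. Within 1 Mb of either gene, other than Rhox genes, 13 genes were called in Mbd3abc KO, 11 higher and 2 lower, and 11 were called in Mbd3cΔN-ab KO, 9 higher and 2 lower. Over all genes tested, 52.1% were called in Mbd3abc KO and 41.5% in Mbd3cΔN-ab KO. None of the neighbours was called in Mbd3ab KO, where 3.35% of all genes tested were called, so this does not set them apart. How many neighbours were tested is not known. As a list of 19 flanking genes taken by name, the counts were 10 higher and 2 lower in Mbd3abc KO and 8 higher and 1 lower in Mbd3cΔN-ab KO. Over all genes tested, 27.1% and 21.1% were called higher in that order. Zbtb33, which encodes the methyl-CpG binding protein Kaiso and is the nearest called gene past Rhox10, had 546 ± 135 normalized reads in Mbd3abc KO and 95.7 ± 4.24 in WT (SD, n = 2 each), 5.71-fold higher, and was 3.58-fold higher in Mbd3cΔN-ab KO. On the other side of Rhox5, Upf3b, of nonsense-mediated decay, was 10.6-fold and 5.27-fold higher, and the mitochondrial carrier Slc25a43 was 3.52-fold and 3.62-fold lower. Of the X-linked genes called, 217 of 306 (70.9%) were higher in Mbd3abc KO, beside 51.4% on other chromosomes, 149 of 210 (71%) in Mbd3cΔN-ab KO, beside 50.2%, and 6 of 15 (40%) in Mbd3ab KO, beside 62.1%. Rhox5 and Rhox6 were thus among the X-linked genes that were lower, the smaller share in Mbd3abc KO and Mbd3cΔN-ab KO, and Rhox10 among those that were higher.

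**Figure D4:**
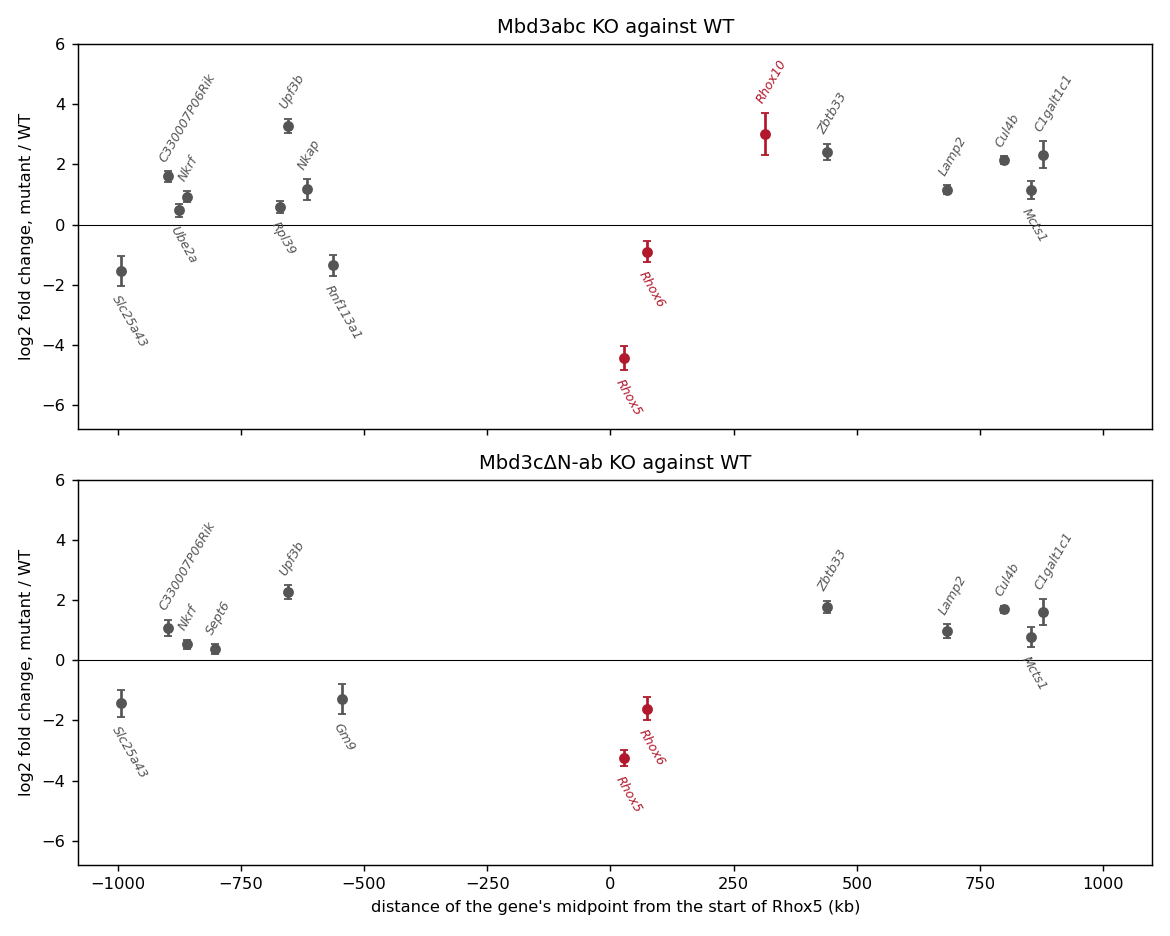
Log2 fold change, mutant over WT, from the authors' deposited tables with its SE (vertical axis) against the distance of each called gene's midpoint from the start of Rhox5 in kb (horizontal axis), in Mbd3abc KO (top) and Mbd3cΔN-ab KO (bottom); Rhox genes are red. Rhox5 and Rhox6 lie below 0 between flanking genes of which 11 of 13 (top) and 9 of 11 (bottom) lie above it.

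Transcript GC content moved with direction in the tables of the stronger mutants, and its part in the Rhox values was not tested. The transcripts of Rhox5, Rhox6 and Rhox10 have 54.5%, 53.9% and 46.7% GC. Among called genes within 2.5 percentage points of Rhox5 in GC, 20.9% of 2091 were higher in Mbd3abc KO, with a median log2 fold change of -0.83 in the authors' deposited table, and 16.2% of 1497 were higher in Mbd3cΔN-ab KO, with -0.69. Around Rhox6 it was 23.3% of 2053 and -0.79 in the authors' deposited table of Mbd3abc KO, which is close to the -0.90 of Rhox6 itself, and 18.2% of 1455 and -0.66 in that of Mbd3cΔN-ab KO. Around Rhox10, 80.3% of 1690 called genes were higher in Mbd3abc KO. Over all called genes, 52.1% were higher in Mbd3abc KO and 50.9% in Mbd3cΔN-ab KO. In Mbd3ab KO, 66.9% of 175 called genes around the GC of Rhox5 and 64.6% of 175 around that of Rhox6 were higher, near the 61.3% of all called genes there.

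Like Rhox5 and Rhox6, most called genes of DNA and histone methylation, the machinery known to repress the Rhox cluster, were lower in Mbd3abc KO and Mbd3cΔN-ab KO. The list also holds the Tet genes, whose enzymes oxidise methylated cytosine. Among its 15 genes, in the authors' deposited tables, 4 were higher and 9 lower in Mbd3abc KO, 3 were higher and 6 lower in Mbd3cΔN-ab KO, and Tet3 alone was called, higher, in Mbd3ab KO. Over all genes tested in the authors' deposited tables, 27.1% were called higher and 24.9% lower in Mbd3abc KO, 21.1% and 20.4% in Mbd3cΔN-ab KO, and 2.05% and 1.3% in Mbd3ab KO. How many members of a list were tested is not known, since the tables hold called genes. Dnmt3b, a de novo DNA methyltransferase, was 2.37-fold lower in Mbd3abc KO and 2.01-fold lower in Mbd3cΔN-ab KO, and Ehmt2, the H3K9 methyltransferase G9a, 2.68-fold and 2.02-fold. Hells, a remodeller needed for DNA methylation, was 9.24-fold and 5.07-fold higher. Of 9 linker histone genes on a list, 7 were called in Mbd3abc KO and 6 in Mbd3cΔN-ab KO, all lower. Among them, Hist1h1c was 4.96-fold and 3.39-fold lower. None of the 9 was called in Mbd3ab KO, where 3.35% of all genes tested were called, so this does not set them apart. In Mbd3c KO, where no Rhox gene was called, Hist1h1t, the testis form, was 6.18-fold higher.

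Factors known to act on the Rhox5 promoters were also called, and their part in the Rhox5 values was not tested. Of 10 Ets, Sp and receptor genes, none was called in Mbd3ab KO, where 3.35% of all genes tested were called, so this does not set them apart. In Mbd3abc KO 6 were higher and 2 lower, beside 27.1% and 24.9% of all genes tested. In Mbd3cΔN-ab KO 6 were higher and 1 lower, beside 21.1% and 20.4%. Gabpa, the Ets subunit of GABP, was 4.55-fold and 3.45-fold higher in that order of mutants, while Elk1 was 1.8-fold and 1.37-fold lower. Of 8 genes reported downstream of Rhox5 in testis, 2 were called lower in Mbd3abc KO and 1 in Mbd3cΔN-ab KO, shares close to or below those called lower over all genes tested, so the list does not stand apart. They were the lipid transfer protein Pltp, 3.8-fold lower in Mbd3abc KO and 2.53-fold in Mbd3cΔN-ab KO, and the adiponectin receptor Adipor2, 1.45-fold lower in Mbd3abc KO. Neither was called in Mbd3ab KO, where 3.35% of all genes tested were called.

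Rhox10 was higher in Mbd3abc KO, and so were most called germline genes of a list of genes known for repression by promoter DNA methylation, some of which were well expressed in WT. Of its 30 genes, 18 were higher and 3 lower in Mbd3abc KO, and 10 were higher and 3 lower in Mbd3cΔN-ab KO. In Mbd3ab KO, 2 were higher and 1 lower. Among all genes tested, 27.1% were called higher and 24.9% lower in Mbd3abc KO, and 21.1% and 20.4% in Mbd3cΔN-ab KO. For Mbd3ab KO these shares were 2.05% and 1.3%. The germ cell RNA-binding protein Dazl, at 661 ± 208 normalized reads in Mbd3abc KO and 15.5 ± 0.0306 in WT (SD, n = 2 each), was 42.7-fold higher, whereas Tex19.1, like Rhox5, was lower in each of the 3 mutants, 2.88-fold in Mbd3abc KO, 5.13-fold in Mbd3cΔN-ab KO and 1.96-fold in Mbd3ab KO. Of 32 genes listed as X-linked germline genes, 7 were higher and 1 lower in Mbd3abc KO, and 3 higher and 1 lower in Mbd3cΔN-ab KO. Both shares called higher were below those over all genes tested. The lower one was the nuclear receptor Nr0b1, at 4.82-fold and 2.78-fold. Nr0b1 had 1841 ± 247 normalized reads in WT beside Mbd3abc KO (SD, n = 2), so this list too holds a gene well expressed in WT. In Mbd3ab KO, Nr0b1 and Usp26 were called, both lower, as Rhox5 and Rhox6 were. Other PRD-class homeobox genes, 44 on the list, were 5 higher and 3 lower in Mbd3abc KO, 4 higher and 1 lower in Mbd3cΔN-ab KO and 2 higher in Mbd3ab KO, and in Mbd3abc KO and Mbd3cΔN-ab KO these shares too were below those over all genes tested. Of these relatives of Rhox5 and Rhox6, Otx2, a factor of the epiblast and anterior brain, was 4.64-fold, 3.78-fold and 2.54-fold higher in that order.

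**Figure D5:**
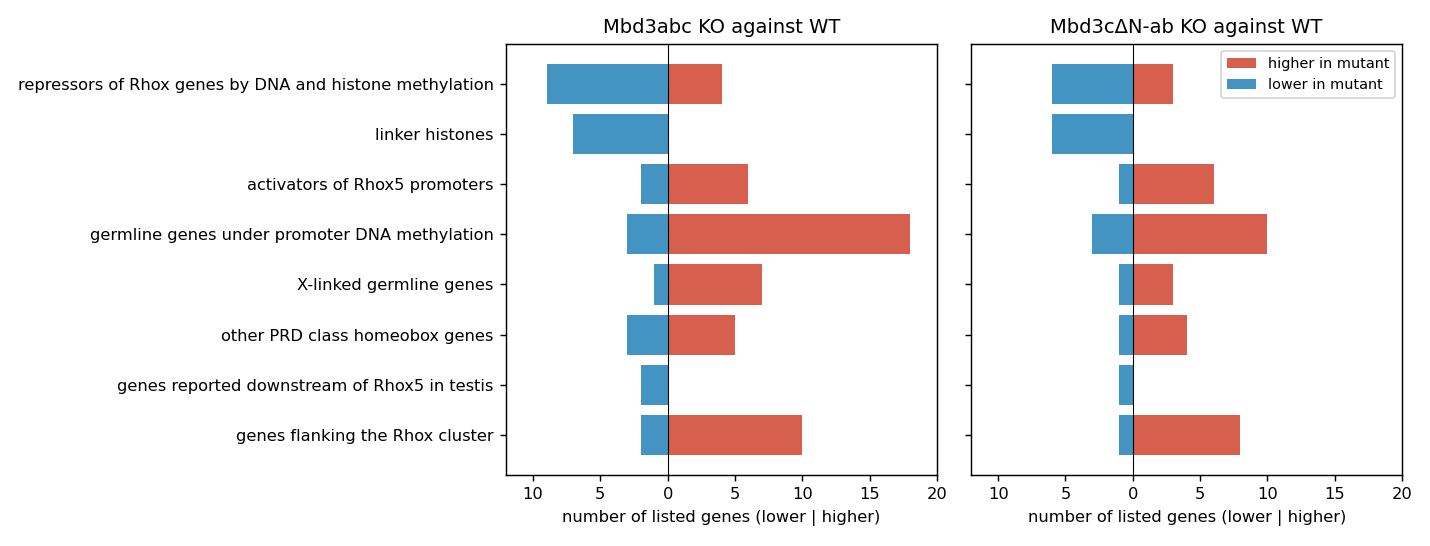
Number of genes called lower (blue, left of 0) and higher (red, right of 0) than WT in each list, in Mbd3abc KO (left panel) and Mbd3cΔN-ab KO (right panel). The 7 and 6 called linker histone genes all lie to the left, as Rhox5 and Rhox6 do, whereas 18 of 21 and 10 of 13 called germline genes lie to the right, as Rhox10 does.

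Some markers of cell types in which Rhox5 or Rhox6 is known were called as well, and their part in the Rhox values was not tested. Over all genes tested, 3.35% were called in Mbd3ab KO, 52.1% in Mbd3abc KO and 41.5% in Mbd3cΔN-ab KO, and the trophoblast markers called were a smaller share of their list in the last 2. Of 10 primordial germ cell markers, 4 were lower and 1 higher in Mbd3ab KO, 5 lower and 2 higher in Mbd3abc KO, and 6 lower and 1 higher in Mbd3cΔN-ab KO. Summed over the called ones, they had 863 to 891 normalized reads in Mbd3ab KO and 1959 to 2087 in WT, 2107 to 2936 in Mbd3abc KO and 4369 to 4624 in WT, and 1940 to 2685 in Mbd3cΔN-ab KO and 5252 to 5467 in WT. Of 15 trophoblast markers, 4 were higher and 1 lower in Mbd3ab KO, 5 higher and 1 lower in Mbd3abc KO, and 3 higher and 2 lower in Mbd3cΔN-ab KO, with sums of 1876 to 1920 in Mbd3ab KO and 1576 to 1625 in WT, 1590 to 2396 in Mbd3abc KO and 689 to 794 in WT, and 1412 to 1546 in Mbd3cΔN-ab KO and 1652 to 1678 in WT. Each sum covers the genes called in its own table. Kit made up most of the primordial germ cell sum in WT beside Mbd3abc KO, with 3068 and 3104 normalized reads, against 964 and 2114 in that mutant. Dazl, on the same list, went the other way, with 808 and 513 in Mbd3abc KO, against 15.5 and 15.5 in WT. Tfap2c, which is on both lists, had a mean of 1002 normalized reads in WT beside Mbd3ab KO and 1106 beside Mbd3cΔN-ab KO. It was 2.18-fold and 3.97-fold lower in these mutants and was not called in Mbd3abc KO. No called marker of either list was at 0 in any library, and Psx1, an older name of Rhox6 on the trophoblast list, matched no symbol. Of 12 pluripotency markers, none was called in Mbd3ab KO, where 3.35% of all genes tested were called. In Mbd3abc KO 3 were higher and 4 lower, and in Mbd3cΔN-ab KO 1 was higher and 4 lower. The called ones summed to 36882 to 41007 normalized reads in Mbd3abc KO and 52558 to 52980.0 in WT, and to 22697 to 26352 in Mbd3cΔN-ab KO and 38503 to 38554 in WT. Of 14 endoderm markers, called genes were 2 higher and 1 lower in Mbd3ab KO, 3 and 3 in Mbd3abc KO and 2 and 2 in Mbd3cΔN-ab KO, and 4 of 7 neuroectoderm markers were lower in each of Mbd3abc KO and Mbd3cΔN-ab KO, with Pax6 at 0 in both Mbd3abc KO libraries. Of 10 fibroblast markers, called genes were 1 lower in Mbd3ab KO, 2 higher and 2 lower in Mbd3abc KO, and 1 higher and 2 lower in Mbd3cΔN-ab KO, and in Mbd3c KO the trophoblast marker Krt18 alone was called, 3.42-fold higher.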

How the data were processed

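RNA sequencing of 10 libraries, 2 in each of 5 groups, was analysed from 4 tables, 1 per mutant. TopHat2, HOMER, DESeq2 and the build mm10 are named in the submitters' processing notes, without versions. HOMER took reads over exons in its minus strand mode and condensed transcripts to genes, and DESeq2 compared each mutant with WT, per the file headers. The read columns hold a signal that the authors deposited, reads scaled by 1 factor per library, in place of the counts planned for. The authors' deposited log2 fold changes, SEs and p-values are from DESeq2, and the deposited score column, which per the file headers is its Wald statistic, played no part.

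The tables list 443 (Mbd3ab KO), 38 (Mbd3c KO), 8141 (Mbd3abc KO) and 6000 (Mbd3cΔN-ab KO) genes, with an adjusted p up to just above 0.05, from 13201, 10759, 15622 and 14429 tested, numbers derived from how each p maps to its adjusted p. A gene was called at an adjusted p under 0.05. In the Mbd3abc KO and Mbd3cΔN-ab KO tables, 100% of values under 40 were whole multiples of 1 read within 0.006, so reads were recovered. In the other tables they were not recovered. Size factors came from the relation of the deposited mean to the columns. Absolute depth is unknown.

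Mutant pairs were tested with edgeR 4.0.16 (quasi-likelihood) where reads were recovered and limma 3.58.1 with a trend on log2(level + 1) otherwise, in R 4.3.3, with Benjamini-Hochberg adjustment over all genes called in both tables. The fits take the spread from these called genes. DESeq2 1.42.0, other normalization, pseudocounts, filters, mutant libraries alone and each library left out were alternatives. Scripts were tested on simulated data. Members, 8 gene lists and 6 marker lists (pluripotency, trophoblast, endoderm, primordial germ cell, fibroblast and neuroectoderm) were chosen with earlier results of these data known. Named were all Rhox genes, examples from the lists, called genes within 1 Mb and the 5 genes most like Rhox5 and Rhox6. GC content was taken from GENCODE M21 transcripts, matched for at least 92.1% of called genes per table.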

Additional observations from a re-analysis of the deposited data

Results flagged for a closer look

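The difference of Rhox5 between mutants, -2.37 on the log2 scale for Mbd3abc KO against Mbd3ab KO, stands out because the 2 mutants differ in their distance from the same WT libraries, by a test of the difference itself (adjusted p = 0.0162 by limma). Rhox5 had 10.1 ± 7.56 normalized reads in Mbd3abc KO and 49.5 ± 3.48 in Mbd3ab KO on 1 scale (SD, n = 2 each), and both Mbd3abc KO libraries were below both Mbd3ab KO libraries. The Mbd3abc KO libraries had 16 and 5 reads of Rhox5, and Mbd3 itself was 13-fold lower than WT in Mbd3abc KO and 2.61-fold lower in Mbd3ab KO. The part of counting error and of Mbd3 dose in this difference was not tested.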

How the results depend on the processing

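No paired analysis was possible because the mutant columns carry line names and no replicate number, so no replicate block could be fitted. For Rhox5 and Rhox6 each mutant library lay below both WT libraries of its table, so leaving a library out could not change a sign. Every log2 ratio of Rhox5 and Rhox6 to WT kept its sign under all 42 alternatives. The 3 that moved beyond the replicate spread were in Mbd3ab KO: Rhox5 was -2.95 with TMM factors and -2.30 as deposited, against -2.62, and Rhox6 was -1.21 as deposited, against -1.63. In that table TMM factors, taken over called genes, shift the median gene by -0.32. Of 60 alternatives for mutant pairs none reversed and 57 kept their side of the threshold. Rhox5 in Mbd3abc KO against Mbd3cΔN-ab KO passed with DESeq2 (-1.44), and against Mbd3ab KO it ranged from -3.13 to -1.62 with a library left out and lost its call without either Mbd3ab KO library (-2.30 and -2.44). Genes called in the first pair numbered 361 by edgeR, 702 by DESeq2, 224 and 219 by limma (pseudocounts 1 and 0.5), 10 with mutant libraries alone and 11 to 373 with a library left out. For Mbd3abc KO against Mbd3ab KO they were 117, 67 with mutants alone and 36 to 131, and for Mbd3cΔN-ab KO against Mbd3ab KO 4, 0 with mutants alone and 0 to 13 by limma, which at an unadjusted p under 0.05 called 57, 25 and 24 to 86. The cause was not tested. At an adjusted p of 0.01, 7 of 33 list counts moved by over 1.5 times: in Mbd3ab KO the methylation list to 0 higher, germline genes to 1 higher and 0 lower and PRD-class genes to 1 higher, in Mbd3abc KO genes downstream of Rhox5 to 1 lower, and in Mbd3cΔN-ab KO activators and PRD-class genes each to 0 lower. DESeq2, TMM and RLE were not run on pairs with Mbd3ab KO, whose reads were not recovered. Depth limits Rhox10 in WT and Rhox5 in Mbd3abc KO.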
